A study of Homo sapiens with 6 samples.

Results

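The core cyclin and cyclin-dependent kinase (CDK) genes were examined for peaks of histone lysine acetylation (Kac) and lysine benzoylation (Kbz). The set held 10 genes, 6 cyclins (CCND1, CCND2, CCND3, CCNE1, CCNA2 and CCNB1) and 4 kinases (CDK1, CDK2, CDK4 and CDK6), of the 20033 protein-coding genes of GENCODE 44. They were chosen by name, and every peak that touched the gene body plus 5 kb on either side was assigned to the gene. The series comprised 6 ChIP-seq libraries of cells labelled HepG2, a line from a human liver tumour, with 1 library per group: input, Kac and Kbz, from untreated control cells and from cells given 10 mM sodium benzoate (SB) for 24 h. Peak lists of control Kac, SB Kac and SB Kbz were used. The labels state that peak calling returned nothing for control Kbz, so Kbz had no untreated counterpart. The antibodies recognised acetylated or benzoylated lysine in general and did not separate histones or residues.

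Cyclins are the regulatory partners that switch on CDKs, and their levels rise and fall through the cell cycle. D-type cyclins with CDK4 or CDK6 act in G1, where they phosphorylate the retinoblastoma protein and release E2F transcription factors. Cyclin E with CDK2 drives entry into S phase, cyclin A with CDK2 or CDK1 acts in S and G2, and cyclin B with CDK1 drives mitosis. Transcription of the later genes is held back in resting cells by the DREAM complex, which binds E2F sites and cell cycle homology regions (CHR) in their promoters. Histone acetylation marks active promoters and enhancers, and benzoylation is an acyl mark derived from benzoyl-CoA, the activated form of benzoate.

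Because there was 1 library per group, no test between groups and no replicate error could be given. Peak lists carry no read totals, so the depth behind each list is unknown. Control Kac contributed 70326 peaks, SB Kac 63282 and SB Kbz 24308. Enrichment is given as the percentile of a peak's fold over background within its own list, since the folds of separate libraries are not on a common scale. The label of the cells was checked against marker genes. AFP, ALB, APOB, FGB, HNF4A, SERPINA1 and TTR, which define hepatocytes, had no peak within 3 kb of the transcription start site (TSS) in any list. For control Kac, then SB Kac, then SB Kbz, a peak covered the TSS of 0, 1 and 0 of 6 blood genes, 2, 0 and 0 of 4 endothelial genes, and 1, 1 and 1 of 4 neuronal genes. These defining liver markers were thus without acetylation calls, and the cells are named here by their label only.

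All 10 genes carried all 3 peak types. Each had a peak in the gene body plus 5 kb in control Kac, SB Kac and SB Kbz, against 82.6%, 81.4% and 72.3% of all protein-coding genes. Each also had a peak within 3 kb of the canonical TSS in every list, against 72.8%, 71.9% and 60.3%. The TSS itself was under a control Kac peak at 9 genes, under an SB Kac peak at 9 and under a Kbz peak at 8, with 59.1%, 60.4% and 45.8% of coding genes as the background. The exceptions were CCNE1, whose TSS was bare in all lists, and CDK6, whose TSS lacked Kbz. The 10 windows held 28 control Kac peaks over 70.2 kb, 29 SB Kac peaks over 71.2 kb and 17 Kbz peaks over 34.7 kb. Of the 17 Kbz peaks 13 lay within 3 kb of an annotated start of the gene, compared with 14 of 28 control Kac and 14 of 29 SB Kac peaks. In the windows of all coding genes the same placement held for 65.6% of Kbz peaks and 45.4% of those in either Kac list.

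**Figure D1:**
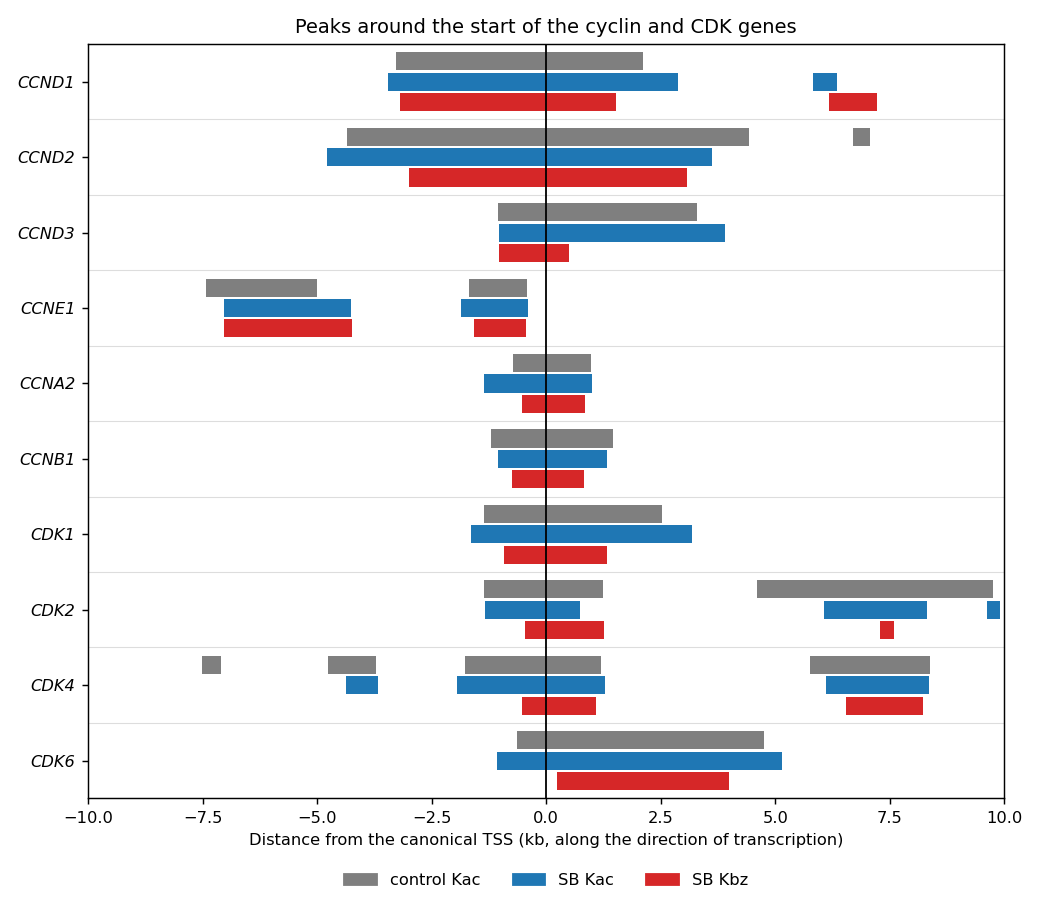
Peaks of control Kac (grey), SB Kac (blue) and SB Kbz (red) within 10 kb of the canonical TSS on either side (vertical line) of each gene, oriented by transcription. Bars span the called peaks, so a reader should see that a Kbz bar lies within the SB Kac bar at most starts, that the CCNE1 bars end 396 to 445 bp upstream of the line and that the CDK6 Kbz bar begins 232 bp downstream of it. The control Kac bar at the left of CCNE1 lies outside the 5 kb window.

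The D-type cyclins CCND1 and CCND2 had the widest Kbz promoter peaks of the set. CCND1 (ENSG00000110092.4, hg38 chromosome 11, 69641156 to 69654474, plus strand) had a promoter peak of 5.39 kb in control Kac, 6.35 kb in SB Kac and 4.72 kb in Kbz. The Kbz peak began 3193 bp before the TSS, ended 1529 bp after it and stood at percentile 98.8 of its list by length. CCND2 (ENSG00000118971.9, chromosome 12, 4269771 to 4305353, plus strand) had promoter peaks of 8.78, 8.40 and 6.05 kb in the same order, and its Kbz peak stood at percentile 99.5 by length. The median promoter peak of all coding genes measured 2537 bp in control Kac, 2658 bp in SB Kac and 1636 bp in Kbz, so at both genes the peaks were longer than that in every list. By fold, the CCND1 peaks stood at percentiles 93.0, 99.1 and 86.5, and those of CCND2 at 96.8, 98.6 and 91.9. An unnamed protein-coding gene, ENSG00000285901, shares the TSS of CCND2, so the marks there belong to either gene.

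Away from its TSS, CCND1 had a site that was called in SB-treated cells and not in control Kac. An SB Kac peak of 528 bp lay 5828 to 6355 bp downstream of the TSS and a Kbz peak of 1057 bp lay at 6175 to 7231 bp. They shared 17.1% of the Kbz peak, and the nearest control Kac peak was 3709 bp from the SB Kac peak. The Kbz peak, but neither Kac list, covered an annotated transcript start 6.80 kb into the gene. Both peaks ranked low to middling, at percentile 43.8 for SB Kac and 22.8 for Kbz. A further Kac peak lay downstream of the gene at about 16 kb in both conditions, at percentiles 24.0 and 19.6, without Kbz.

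CCND3 (ENSG00000112576.13, chromosome 6, 41934934 to 42050357, minus strand) is a long gene with starts at either end of a wide intron. Of its 18 distinct annotated starts, 7 lay within 5 kb of the canonical TSS and 11 lay over 100 kb upstream, next to the TSS of TAF8, which encodes a subunit of the TFIID initiation factor and is transcribed away from it. Both groups of starts were marked. The upstream site had a control Kac peak of 5.37 kb, an SB Kac peak of 5.81 kb and a Kbz peak of 3.73 kb, at percentiles 86.8, 76.0 and 58.2, each over the TSS of TAF8. At the canonical TSS the Kac peaks of 4.33 and 4.95 kb reached 3289 and 3907 bp into the gene, whereas the Kbz peak of 1.53 kb ended 495 bp downstream. The upstream edges of the 3 peaks lay within 4 bp of each other, at 1042, 1038 and 1038 bp from the TSS. CCND3 was also the 1 member whose promoter peak ranked higher in the Kbz list than in the SB Kac list, at percentiles 88.9 and 66.6.

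Inside CCND3, control Kac formed a peak of 5.61 kb from 89.5 to 83.9 kb upstream of the canonical TSS. In SB Kac this stretch held 3 separate peaks of 0.761, 1.49 and 0.405 kb. The middle one stood at percentile 97.5 of the SB Kac list, the highest rank of any SB Kac peak outside a promoter in the set, and the control peak at 85.6. A Kbz peak of 0.967 kb, at percentile 57.8, lay wholly inside it. A further 3 intronic control Kac peaks of CCND3, at percentiles 22.3, 13.3 and 6.57, had no SB Kac peak. Over the whole window there were 9 peaks of control Kac, 7 of SB Kac and 3 of Kbz, and they covered 16.5%, 15.2% and 4.97% of its window.

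**Figure D2:**
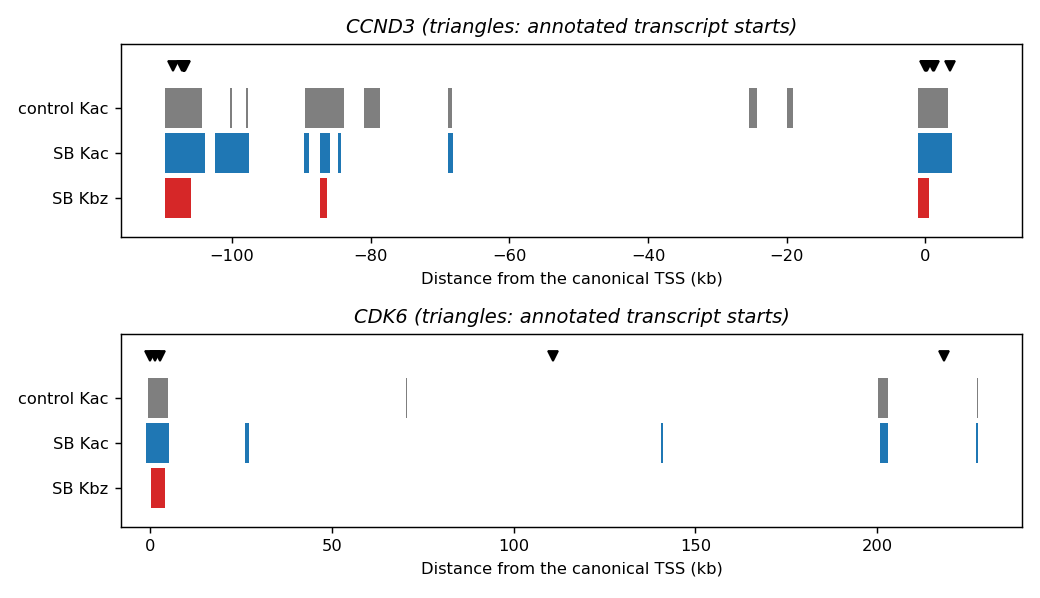
Peaks along CCND3 and CDK6 by distance from the canonical TSS (kb), with the lists in rows and annotated transcript starts as triangles. Kbz (red) was called at both groups of CCND3 starts and at 1 intronic site, and at CDK6 only next to the upstream starts, while the Kac rows hold further intronic peaks.

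CCNE1 (ENSG00000105173.14, chromosome 19, 29811991 to 29824312, plus strand), the S phase entry cyclin, differed from the other members in that none of its 6 annotated starts was under a peak of any list. Its promoter peak lay upstream instead. It extended over 1687 to 415 bp upstream of the TSS in control Kac, 1865 to 396 bp in SB Kac and 1583 to 445 bp in Kbz. It was short, at 1273, 1470 and 1139 bp. It was also strong, with folds of 7.44, 7.02 and 7.18 over background, which stood at percentiles 99.9, 98.6 and 95.9. In control Kac and in Kbz no other promoter peak of the set ranked higher. Further upstream, SB Kac and Kbz had peaks at percentiles 88.9 and 87.0 that reached from 7023 to 4270 bp and from 7027 to 4238 bp before the TSS. The control Kac peak at this site, at percentile 94.0, ended 7 bp short of the 5 kb window. The covered sequence of the CCNE1 window, 1273 bp in control Kac and 2201 bp in SB Kac, therefore depends on where the window ends.

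The 250 bases before the TSS (chr19:29811741-29811990, plus strand, RefSeq, GRCh38.p14) are given, since CCNE1 was the member whose peaks missed its starts. Capitals mark GGGCGG, the GC box bound by SP1-family factors, on either strand.
CCNE1 bare start: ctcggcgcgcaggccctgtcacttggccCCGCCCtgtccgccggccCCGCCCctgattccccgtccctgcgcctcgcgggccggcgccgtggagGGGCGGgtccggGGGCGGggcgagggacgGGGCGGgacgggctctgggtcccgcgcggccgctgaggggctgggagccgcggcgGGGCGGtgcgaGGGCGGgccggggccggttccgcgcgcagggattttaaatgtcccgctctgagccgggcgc
The bare promoter had 81.2% G and C and held 7 GC boxes, and its CpG content was 0.959 of that expected from its base composition.

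CCNA2, CCNB1 and CDK1, which act from S phase to mitosis, had their canonical TSS under a peak in every list. CCNA2 (ENSG00000145386.11, chromosome 4, 121816444 to 121823883, minus strand) had 1 peak per list, of 1705 bp in control Kac, 2353 bp in SB Kac and 1370 bp in Kbz. The CCNB1 peaks (ENSG00000134057.15, chromosome 5, 69167135 to 69178245, plus strand) measured 2665, 2387 and 1583 bp, again 1 per list. At CDK1 (ENSG00000170312.17, chromosome 10, 60778331 to 60794852, plus strand) they measured 3884, 4829 and 2257 bp. The Kbz peaks began 519, 747 and 928 bp upstream of the TSS and ended 850, 835 and 1328 bp downstream, in the order CCNA2, CCNB1 and CDK1. In each of these genes the Kbz peak was wholly inside the SB Kac peak.

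All 3 genes ranked higher in SB Kac than in control Kac. The CCNA2 promoter peak stood at percentile 74.2 in control Kac and 94.5 in SB Kac. The corresponding values were 73.2 and 96.5 for CCNB1 and 86.7 and 96.0 for CDK1. The differences at CCNB1 and CCNA2 were the largest of the set. Among promoter peaks of coding genes alone, a ranking that does not depend on how many distal peaks a list holds, CCNA2 went from 37.6 to 81.1, CCNB1 from 35.6 to 87.8 and CDK1 from 64.5 to 86.3. Kbz stood at percentiles 79.8, 93.3 and 76.0 of its list. CDK1 had 1 further site downstream of the gene, 16.6 to 17.6 kb from the TSS, in SB Kac and Kbz but not in control Kac. It was among the weakest of its lists, at percentiles 3.54 and 2.70.

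The bases before these starts are given 5′ to 3′ on the strand of the gene, since these promoters carry elements known from cell cycle genes. Capitals mark the CCAAT box bound by NF-Y, the GC box, the CHR in the form TTTGAA and the cAMP response element core TGACGTC, each on either strand. The stretches are chr4:121823884-121824133 for CCNA2, chr5:69166900-69167134 for CCNB1 and chr10:60778081-60778330 for CDK1 (RefSeq, GRCh38.p14). That of CDK1 precedes its first annotated start, 147 bp upstream of the canonical TSS, and each stretch was wholly under all 3 peaks.
CCNA2: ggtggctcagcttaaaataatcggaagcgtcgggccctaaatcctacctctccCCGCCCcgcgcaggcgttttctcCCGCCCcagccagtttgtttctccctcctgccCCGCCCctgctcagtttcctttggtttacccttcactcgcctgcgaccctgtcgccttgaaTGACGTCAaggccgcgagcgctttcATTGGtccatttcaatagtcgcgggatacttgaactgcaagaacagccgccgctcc
CCNB1: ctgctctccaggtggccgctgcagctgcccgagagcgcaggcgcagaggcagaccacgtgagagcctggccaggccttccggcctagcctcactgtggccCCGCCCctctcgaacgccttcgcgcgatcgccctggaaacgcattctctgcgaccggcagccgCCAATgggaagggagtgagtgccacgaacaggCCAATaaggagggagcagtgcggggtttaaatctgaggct
CDK1: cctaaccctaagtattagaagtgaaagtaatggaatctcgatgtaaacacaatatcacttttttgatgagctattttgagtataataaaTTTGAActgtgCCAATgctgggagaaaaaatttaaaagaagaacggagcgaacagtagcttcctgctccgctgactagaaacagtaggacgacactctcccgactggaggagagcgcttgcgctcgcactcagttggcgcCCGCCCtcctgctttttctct
CCNA2 held 1 CCAAT box, 3 GC boxes and the palindromic cAMP response element, which matches the core on both strands. CCNB1 held 2 CCAAT boxes and 1 GC box, and CDK1 held 1 CCAAT box, 1 TTTGAA and 1 GC box. Other forms of the CHR were not searched, so these counts do not show that CCNA2 or CCNB1 lack one. No E2F core was found in these stretches, searched as TTTGGCG, then as TTTCGCG, also as TTTCCCG and finally as TTTGCCG. The CDK1 stretch stops short of the canonical TSS. From 250 bases before to 50 after that TSS, CDK1 held 2 CCAAT boxes, 3 TTTGAA, 2 GC boxes and 1 E2F core.

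CDK2 and CDK4 are short genes in crowded neighbourhoods. CDK2 (ENSG00000123374.11, chromosome 12, 55966781 to 55972789, plus strand) had promoter peaks of 2608 bp in control Kac, 2090 bp in SB Kac and 1725 bp in Kbz. The TSS of PMEL, a melanosome protein gene read in the other direction, lies 788 bp upstream and was under the Kac peaks, while the Kbz peak began 329 bp on the CDK2 side of it. The Kbz peak ended 1265 bp downstream, past the SB Kac peak, which ended at 744 bp. This was the 1 promoter of the set at which Kbz was not wholly inside SB Kac, with 69.8% of the peak inside. Another site in the CDK2 window lay at the TSS of RAB5B, a gene of endosome trafficking, 7.25 kb downstream. Control Kac covered it with a peak of 5.14 kb, SB Kac with 1 of 2.25 kb and Kbz with 1 of 319 bp that began 37 bp after the RAB5B TSS. Most of the difference in the share of the CDK2 window under Kac, 48.4% in control and 28.9% in SB-treated cells, lay at this site. The CDK2 promoter had the lowest Kbz rank of the set, at percentile 57.5, with Kac at 87.7 and 89.8.

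CDK4 (ENSG00000135446.17, chromosome 12, 57747727 to 57756013, minus strand) had promoter peaks of 2971, 3230 and 1603 bp at percentiles 87.3, 90.1 and 87.3. The Kbz peak began 518 bp before the TSS and ended 1084 bp after it. A second strong site lay downstream over the TSS of TSPAN31, a tetraspanin gene 7.27 kb from that of CDK4, and was present in all lists at percentiles 93.6, 91.7 and 64.1. The TSS of MARCHF9, a ubiquitin ligase gene 2.79 kb upstream of CDK4, was under no peak. A Kac peak near the most upstream annotated start of CDK4, 3.70 kb before the canonical TSS, covered that start in SB Kac and missed it in control Kac. The margin was small, since the control peak ended 3719 bp and the start lies 3703 bp before the canonical TSS. SB Kac covered 61.1% of this control peak.

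CDK6 (ENSG00000105810.10, chromosome 7, 92604921 to 92836573, minus strand), the largest gene of the set, was the member at which Kbz was displaced into the gene. Its Kac promoter peaks ran from 641 bp upstream to 4746 bp downstream of the TSS in control cells and from 1063 bp upstream to 5141 bp downstream in SB-treated cells. The Kbz peak ran from 232 to 3986 bp downstream. It thus left the canonical TSS bare and covered the next RefSeq start, 2614 bp further into the gene. The peaks stood at percentiles 75.7 and 89.4 in the Kac lists and 68.2 in Kbz. Kac was called at further intronic and exonic sites, 3 in control Kac and 4 in SB Kac, of which those at about 200 and 227 kb from the TSS were common to both. None had Kbz. Control Kac covered 3.66% of the CDK6 window, SB Kac 4.45% and Kbz 1.55%, the lowest shares of the set.

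The 250 bases before each of these CDK6 starts (chr7:92836574-92836823 and chr7:92833960-92834209, minus strand, RefSeq, GRCh38.p14) are shown because only the second was under Kbz, while Kac covered both. Capitals mark GC boxes.
CDK6 canonical start, no Kbz: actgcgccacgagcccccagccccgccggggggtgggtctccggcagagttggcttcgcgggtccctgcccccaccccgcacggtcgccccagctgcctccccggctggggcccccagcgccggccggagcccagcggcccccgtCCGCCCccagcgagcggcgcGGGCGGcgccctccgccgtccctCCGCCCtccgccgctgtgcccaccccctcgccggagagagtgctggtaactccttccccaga
CDK6 second start, under Kbz: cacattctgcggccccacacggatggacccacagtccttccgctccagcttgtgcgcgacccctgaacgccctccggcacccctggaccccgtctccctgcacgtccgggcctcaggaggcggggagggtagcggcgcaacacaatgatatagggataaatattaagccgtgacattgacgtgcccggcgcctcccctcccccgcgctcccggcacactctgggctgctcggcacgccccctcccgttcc
The stretch without Kbz had 80% G and C and 3 GC boxes, and the stretch with Kbz had 67.6% and 0.

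The promoter table held entries for 7 of the 10 genes, 11 starts in all, and not for CCND1, CCND2 and CDK2. Over 300 bases, from 250 before to 50 after the start, these 11 had a median G and C content of 66.0% (47.7 to 81.0%) and a median CpG ratio of 0.871, against 58.7% and 0.579 for the 35116 promoters of the table. A GC box was found in 9 of the 11 and in 45.0% of all promoters, a CCAAT box in 6 and in 34.6%, and TTTGAA in 2 and in 15.2%. The 4 E2F cores occurred in 2 of the 11 and in 8.67% of all promoters, the cAMP response element core in 1 and in 3.45%, and TATAAA in 0 and in 11.5%. The 2 starts with TTTGAA and the 2 with an E2F core were the same CDK1 starts, 147 bp apart with overlapping windows, and thus 1 gene. Matches were sought on both strands and counted motif by motif, also where they overlapped. The canonical starts of CCNE1 and CDK6, at 81.0% and 78.0%, were the richest in G and C and were also the canonical starts without Kbz. A further start of CCND3, 2.60 kb into the gene, lacked Kbz at 60.3%. Over all starts of the table, the share under a Kbz peak was 7.52% below 50% G and C, 35.2% at 50 to 60%, 55.7% at 60 to 70%, 57.7% at 70 to 75%, 47.1% at 75 to 80% and 32.0% at 80% or more. Control Kac went through 16.6%, 48.5%, 69.0%, 72.3%, 67.9% and 52.9% in the same bins, and SB Kac through 15.3%, 46.9%, 69.5%, 75.7%, 72.5% and 59.3%. The part of base composition in the bare starts was not tested.

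The promoter peaks of control Kac and SB Kac were then compared across the set. The fold percentile of the promoter peak was higher in SB Kac than in control Kac at 8 of the 10 genes, against 62.7% of the coding genes with a promoter peak in both lists. The exceptions were CCND3, from 76.2 to 66.6, and CCNE1, from 99.9 to 98.6. Ranked among promoter peaks alone it was higher at 7 of 10, with a background of 50.6%, because CDK2 (67.1 and 65.7) then fell below. The median percentile of the 10 peaks was 87.0 in control Kac and 95.3 in SB Kac, and the medians over all coding genes with a promoter peak were 81.2 and 85.0. With 1 library per condition these differences in rank have no error of their own, and in bulk chromatin more of a mark per cell and more cells with the mark cannot be told apart. The promoter peak was longer in SB Kac at 7 of 10 genes, and longer at 53.7% of coding genes.

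**Figure D3:**
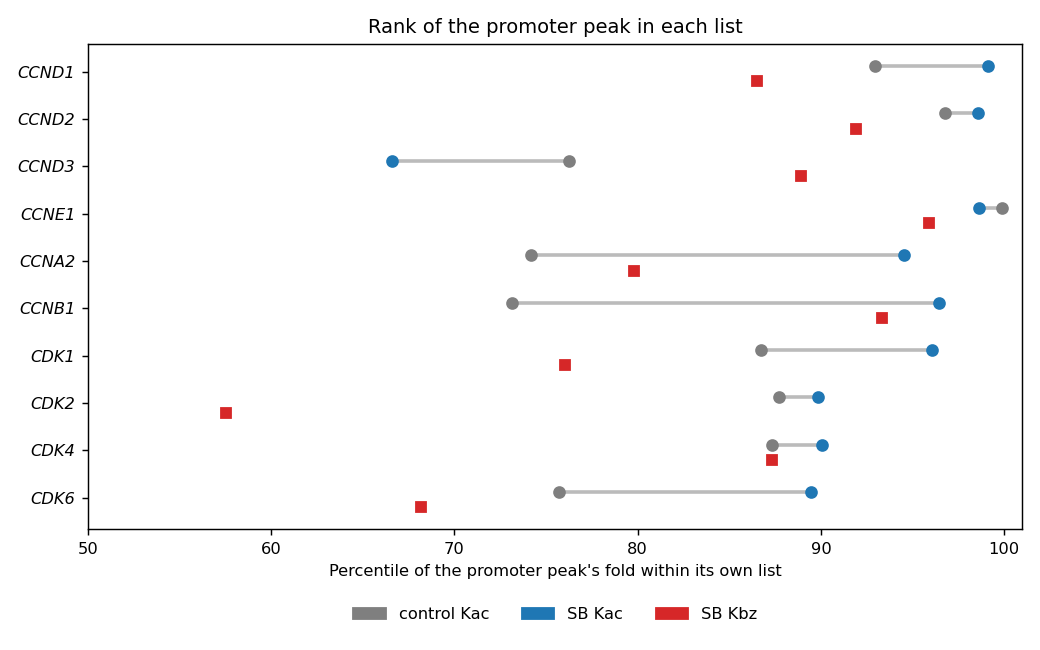
Percentile of the fold of each gene's promoter peak within its own list (horizontal axis, drawn from 50), for control Kac (grey circles), SB Kac (blue circles, joined to control by a line) and SB Kbz (red squares). The blue circle is to the right of the grey one at all genes but CCND3 and CCNE1, with the longest lines at CCNB1 (73.2 to 96.5) and CCNA2 (74.2 to 94.5).

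Most Kac territory was common to both conditions. Of the bases of the 10 windows under Kac, 55.9 kb were covered in both, 14.3 kb in control Kac only and 15.3 kb in SB Kac only, so 65.3% of the union was shared. The shared portion ranged from 50.7% at CCND3 to 89.6% at CCNB1. The ratio of SB Kac to control Kac covered sequence had a median of 1.11 over the members, from 0.597 at CDK2 to 1.73 at CCNE1. The median over coding genes covered in both lists was 0.996. The CCNE1 ratio depends on where its window ends, since the upstream control Kac peak stopped 7 bp outside it and the SB Kac peak reached inside. Of the 28 control Kac peaks 6 had no SB Kac peak, or 21.4% (Wilson 95% interval 10.2 to 39.5), compared with 35.3% of the whole list. Of the 29 SB Kac peaks 4 had no control Kac peak, or 13.8% (5.50 to 30.6), compared with 27.5% of the list. These intervals cover counting error only.

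The peaks found in 1 Kac list only were away from the canonical starts. The 6 control Kac peaks without SB Kac lay at CCND2, CCND3, CDK4 and CDK6, so that 4 of 10 windows held such a peak, against 39.1% of coding genes. They measured 371 to 2273 bp, stood at percentiles 6.57 to 47.2 and had no Kbz. The 4 SB Kac peaks without control Kac lay at CCND1, CDK1 and CDK6, or 3 of 10 windows, against 35.6%. Those of CDK6, 26.0 and 140 kb into the gene, stood at percentiles 67.5 and 57.5 and had no Kbz. Those of CCND1 and CDK1, described above, overlapped Kbz, which made 2 of 10 windows with such a site, against 1.66% of coding genes. Both sites were weak calls. That of CDK1 was below a −log10 q of 2 (1.34 in SB Kac and 1.45 in Kbz). That of CCND1 was below 5 (2.43 and 2.29). Neither share was recomputed at these thresholds. All 10 promoter peaks of either Kac list overlapped one of the other.

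**Figure D4:**
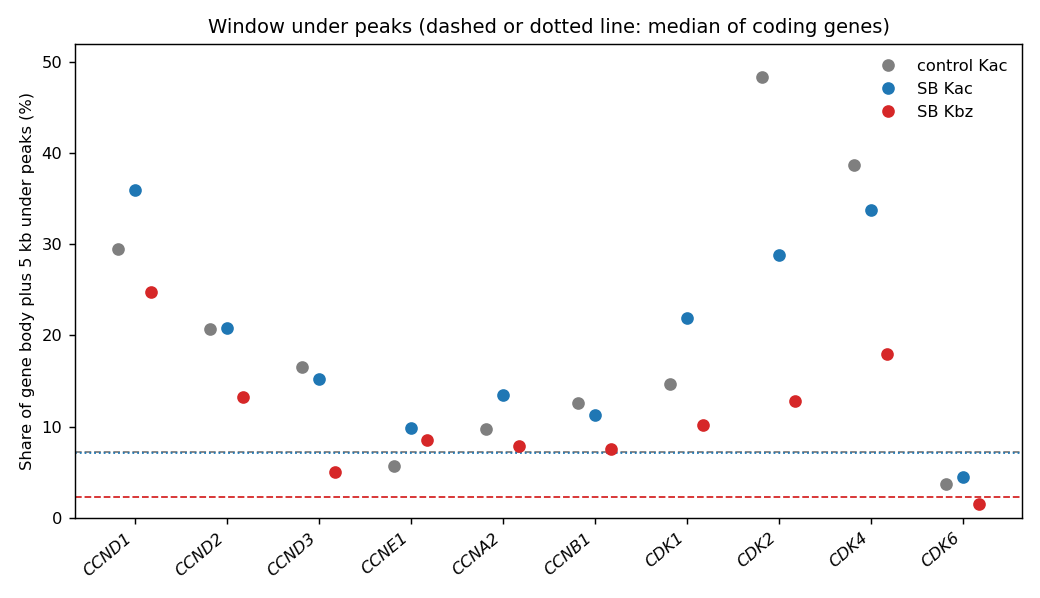
Share of the gene body plus 5 kb under peaks (%) in control Kac (grey), SB Kac (blue) and SB Kbz (red), with the median of all protein-coding genes for each list as a dashed or dotted line (7.24%, 7.14% and 2.32%). All points but those of CDK6 and the control Kac point of CCNE1 lie above the line of their list, and CDK2 shows the widest gap between control Kac (48.4%) and SB Kac (28.9%).

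Coverage of the windows was given per list. The members' median share under peaks was 15.6% with control Kac, 18.0% with SB Kac and 9.33% with Kbz, against 7.24%, 7.14% and 2.32% over all coding genes. The windows differ in size, from CDK2 to CDK6 (242 kb), with a median of 22.8 kb, and the median window of coding genes was 37.5 kb. The part of window size in the difference was not tested. CCND1 had the highest share under Kbz, 24.8%, at percentile 97.0 among coding genes, with 29.5% under control Kac and 36.0% under SB Kac. It was followed by CDK4 with 18.0%, CCND2 with 13.3%, CDK2 with 12.8% and CDK1 with 10.1%. CCNE1, CCNA2 and CCNB1 were close together at 8.52%, 7.86% and 7.50%. CCND3 and CDK6, the longest genes, were last at 4.97% and 1.55%.

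Finally, Kbz was compared with Kac within SB-treated cells. Each of the 17 Kbz peaks touched SB Kac (100%, Wilson interval 81.6 to 100), and 15 touched control Kac (88.2%, 65.7 to 96.7). Of all 24308 Kbz peaks 93.7% overlapped the former and 93.3% the latter, both within these intervals. Of the Kbz bases in the windows 95.9% were inside SB Kac, and Kbz covered 46.7% of the SB Kac bases. The SB Kac bases under Kbz ranged from 32.7% at CCND3 and 32.9% at CDK2 to 66.3% at CCNB1 and 85.0% at CCNE1. Every one of the 10 promoter SB Kac peaks had Kbz, compared with 7 of the 19 others. In the windows of all coding genes 83.0% of promoter SB Kac peaks and 26.0% of the others had Kbz, so the contrast was a general one. The 12 SB Kac peaks without Kbz stood at percentiles 16.9 to 72.0, and the 17 with Kbz at 3.54 to 99.1, with a median of 90.1.

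The Kbz promoter peak was the shorter one at all 10 genes, against 93.8% of coding genes with both peaks, and lay wholly inside the SB Kac peak at 9 of 10, against 79.3%. Where the TSS was covered, Kbz reached a median of 838 bp upstream and 1175 bp downstream over 8 genes, and SB Kac 1351 bp and 2884 bp over 9 genes. Ranked among promoter peaks alone, Kbz stood higher than SB Kac at 3 of 10 genes, against 32.4% of coding genes. These were CCND3 (20.6 in SB Kac and 83.3 in Kbz), CDK4 (66.5 and 80.9) and CCNB1 (87.8 and 90.1). The narrower Kbz peak within a Kac peak was therefore the rule for coding genes as well and was not particular to the cyclins and CDKs.

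**Figure D5:**
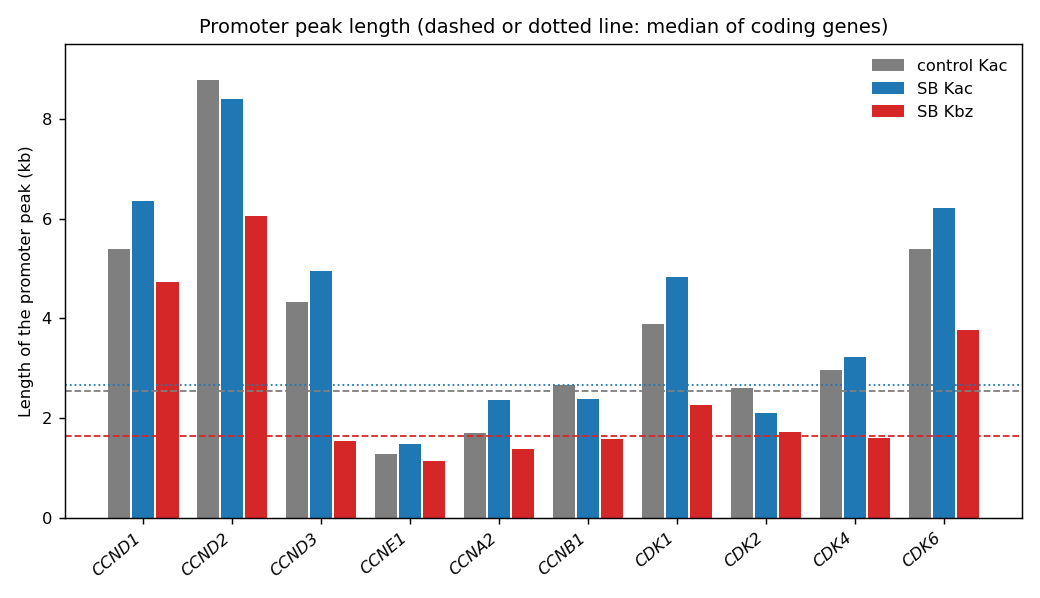
Length of the promoter peak (kb) at each gene in control Kac (grey), SB Kac (blue) and SB Kbz (red), with the median of coding genes in each list as a dashed or dotted line (2537, 2658 and 1636 bp). The red bar is the shortest of the 3 at every gene, and CCND2, CCND1 and CDK6 have the tallest red bars at 6.05, 4.72 and 3.76 kb.

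Other genes of the pathway were examined as 7 lists with 91 genes, none of them a member. A control Kac peak covered the TSS of 83 of the 91, an SB Kac peak that of 86 and a Kbz peak that of 70, and 69 had all 3. Over all coding genes the shares were the 59.1%, 60.4% and 45.8% given above, and 44.8% had all 3. The 11 genes of origin licensing, among them some of the MCM helicase subunits, had all 3 peaks without exception. Of 20 genes of the retinoblastoma, E2F and DREAM group, 19, 19 and 16 were covered in control Kac, SB Kac and Kbz. LIN54, MYBL2 and RB1 lacked Kbz at the TSS but had it within 3 kb. TFDP1, the partner subunit of E2F factors, lacked all 3 at the TSS. Within 3 kb it had SB Kac and Kbz and no control Kac. Of 7 CDK inhibitors 6, 7 and 6 were covered. The exception was CDKN1C, an imprinted growth inhibitor, which had Kac over the TSS in SB-treated cells only. Within 3 kb it had a control Kac peak as well, at percentile 46.2 against 34.2 in SB Kac, and no Kbz. Among 5 CDK phosphatases and kinases, only WEE1, the kinase that restrains CDK1, had a bare TSS in all lists, with peaks of all 3 types within 3 kb.

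Among 14 other cyclin and CDK genes of the cell cycle, 12, 13 and 11 were covered. CCNA1, the germline A-type cyclin, had no peak over the TSS in any list. CCNE2 had SB Kac and Kbz and no control Kac at the TSS, and CCNG2 and MNAT1 had Kac in both conditions without Kbz. All 4 had each peak type within 3 kb. Of 14 genes of cyclin degradation all were covered by both Kac lists and 11 by Kbz. The others, ANAPC11, FBXW7 and FZR1, had Kbz within 3 kb. The 20 transcriptional and other cyclins and CDKs had the fewest Kbz starts relative to Kac, with 17, 18 and 11 covered. CCNK, CCNY, CDK14 and CDK16 were among those without Kbz at the TSS, yet each had a Kbz peak within 3 kb. CDK11A had no peak of any type within 3 kb. It has a near-identical copy, CDK11B, and the authors kept uniquely mapped reads only, so its value is uncertain.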

How the data were processed

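Peak lists of 3 ChIP-seq libraries were analysed, and the input and control Kbz libraries were not used here. Per the labels and the study's methods, the authors cut chromatin with micrococcal nuclease, sequenced 50 bp single reads, aligned them to hg38 with Bowtie2 2.2.6, kept unique alignments, removed duplicates with SAMtools 0.1.19 and called peaks per library with MACS2 2.1.1 at a stated FDR of 0.01. The broad setting and the background library are not given in the sources used here. The deposited fold is a ratio over background, averaged over the peak, and was used as a rank within its list. From the deposited file also came −log10 p and −log10 q, which served as thresholds only, and the lowest −log10 q in a list was 1.31. The lists thus held peaks with a q above the stated FDR of 0.01, up to 0.0494 in SB Kac. The deposited integer score was not used. Depth is unknown, because peak lists hold no read totals.

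Peaks on 24 chromosomes were kept, which left out 3 peaks of control Kac. GENCODE 44 gave genes, transcripts and the canonical TSS. An overlap was at least 1 bp. The promoter peak of a gene was the peak over its canonical TSS, or else the nearest within 3 kb. Promoter sequences came from RefSeq (GRCh38.p14). A liver marker and a sequence stretch are not reported here. The text names all 10 members, coding genes with a TSS in a member's window, and in each pathway list up to 5 genes, in alphabetical order, that lacked a peak over the TSS in at least 1 list. Motifs, lists and markers were chosen, like the members, with earlier results of these data known. Alternatives were a −log10 q of at least 2 or 5, the top 15000 peaks per list by −log10 p, other windows, merging within 1 kb, overlap of 50% and any TSS. Python 3.11.15, numpy 2.4.6, scipy 1.17.1, matplotlib 3.10.9, samtools 1.23.1 and bedtools 2.31.1 were used, and overlaps were tested on simulated data and compared with bedtools.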

Additional observations from a re-analysis of the deposited data

How the results depend on the processing

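No paired analysis was possible because there was only 1 library in a group, and no replicate could be left out. The 16 results were recomputed 95 times with 1 choice changed at a time. In 76 the value stayed within 1.5 times of the original or, for the share of Kbz peaks, inside its interval, and in 19 it moved further. Leaving out peaks at other coding genes' promoters and ranking among promoter peaks or by −log10 q were chosen after seeing the data and moved no result beyond these bounds. The moves below follow from fewer peaks, smaller windows or a stricter overlap.

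At −log10 q thresholds of 2 and 5, 3 and 1 control Kac peaks had no SB Kac peak. At the threshold of 5 the windows held 11 control Kac and 16 SB Kac peaks. Control Kac was then left at 7 members, without CCNA2, CCNB1 and CDK6, whose control peaks were all below it, while SB Kac and Kbz were left at all 10. With the 15000 strongest peaks of each list, the TSS was under control Kac at 5 members, the windows held 9 control Kac peaks over 38.5 kb and 12 SB Kac peaks over 41.8 kb, 80% of Kbz peaks overlapped SB Kac, and 1 control Kac peak had no SB Kac. Within 3 kb of the canonical TSS each list held 10 peaks, control Kac covered 33.9 kb and SB Kac 36.2 kb, and 0 peaks were found in 1 Kac list only. With an overlap of 50% of the peak, 7 SB Kac peaks had no control Kac.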
